A study of Mus musculus with 6 samples.

Results

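Ccl5 and 9 other CC chemokine genes of mouse chromosome 11 (Ccl2, Ccl3, Ccl4, Ccl6, Ccl7, Ccl8, Ccl9, Ccl11 and Ccl12) were followed in RNA of tumour-associated macrophages (TAMs), the macrophages that populate a tumour. The 10 genes were taken by symbol, and all 10 were present among the 24391 gene rows of the count table and among the 23284 gene rows of the FPKM table. The cells came from colorectal tumours of CCL5-/- or WT mice, all of strain BALB/C, and were sorted into a CD11bhi F4/80low and a CD11blow F4/80hi population. The F4/80low population had 2 CCL5-/- libraries and 2 WT libraries with read counts, and the F4/80hi population had 1 library labelled CCL5-/- and 1 labelled WT with FPKM values. How the tumours were raised, the age of the mice, which bases of Ccl5 the allele removes, and whether a library is 1 mouse or a pool are not given in the sources used here. Replicates are thus not stated to be separate animals, and a p-value sets a difference against the spread of the libraries alone, part or all of which may be technical.

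CC chemokines are small secreted proteins that bind G-protein-coupled receptors on leukocytes and direct their migration. In the mouse, the genes studied here lie in a pair of clusters on the same chromosome. Ccl2, Ccl7, Ccl8 and Ccl12 encode the monocyte chemoattractant proteins and Ccl11 the eosinophil attractant eotaxin. Ccl3, Ccl4, Ccl5, Ccl6 and Ccl9 encode attractants of monocytes, macrophages, granulocytes and T cells. Activated macrophages are a well known source of most of these proteins, while Ccl5 is also made by T cells and natural killer cells.

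In GENCODE M21 on GRCm38, Ccl2, Ccl7, Ccl11, Ccl12 and Ccl8 lie in this order at chr11:82035571-82116799, a stretch of 81.2 kb called the proximal cluster here. Ccl5, Ccl9, Ccl6, Ccl3 and Ccl4 lie at chr11:83525778-83664683, a stretch of 138.9 kb called the distal cluster. The gap between the clusters spans 1409 kb and holds 56 annotated genes. The 5 proximal genes and Ccl4 are on the plus strand, and Ccl5, Ccl9, Ccl6 and Ccl3 on the minus strand. No exon of any of the 10 genes overlaps an exon of another gene, and no 50-base stretch of their transcripts is shared with another gene except in Ccl9, where 1.97% of 2996 such stretches are shared.

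The libraries differed in ways that touch the results. Total counts ran from 9280635 to 22411342. The ribosomal RNA precursor Rn45s took 50.04% and 58.4% of the counts in the CCL5-/- and WT libraries numbered 1, against 1.38% and 0.844% in those numbered 2, so that replicate 1 rests on fewer reads and each difference is also given within same-numbered libraries. The F4/80hi libraries could not be told from the replicate 1 libraries of F4/80low. The FPKM ratio of the library labelled CCL5-/- to the library labelled WT gave the split of reads between WT replicate 1 and CCL5-/- replicate 1 with a median chi-square of 0.335 over 6677 genes with 20 to 400 reads, below the 0.455 of independent reads, while the 11 other pairings gave 3.57 to 8.90. The 2 F4/80hi libraries were therefore counted as the same samples as replicate 1, matched crosswise, and add no replicate. Which of the sorted populations replicate 1 came from is thus uncertain as well, and replicates 1 and 2 may differ in population. The name F4/80low follows the labels below. For these 2 libraries the sample titles also name the genotype opposite to that in the genotype field, which the labels below follow. The match is crosswise by that field. By the titles, each library matched the replicate 1 library of its own genotype. All 10 macrophage markers examined (Adgre1, which encodes F4/80, Itgam, which encodes CD11b, Csf1r and others) were detected in every F4/80low library, with summed levels of 2008 and 1692 CPM (read counts scaled to a common library size) in CCL5-/- and 1718 and 2206 CPM in WT. The sums hide differences between replicates. Itgam had 580 and 598 CPM in CCL5-/- and WT replicate 1, against 144 and 180 CPM in CCL5-/- and WT replicate 2. C1qa went the other way, with 241 and 214 CPM in replicate 1, against 469 and 628 CPM in replicate 2. Summed markers of fibroblasts (704 to 1047 CPM) were also present in every library, and those of dendritic cells, B cells, epithelial or tumour cells, and eosinophils, basophils and mast cells ran from 0.814 to 32.1 CPM.

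Ccl5, the targeted gene and a ligand of Ccr1 and Ccr3, was counted 35 and 82 times in CCL5-/- replicates 1 and 2, against 255 and 3976 times in WT replicates 1 and 2. Scaled with TMM factors, these counts correspond to 4.07 and 3.01 CPM in CCL5-/-, against 43.8 and 130.7 CPM in WT. Both CCL5-/- libraries lay far below both WT libraries, and the 2 CCL5-/- values were close to each other while WT replicate 2 was well above WT replicate 1. The means were 3.54 ± 0.75 CPM in CCL5-/- and 87.25 ± 61.4 CPM in WT (SD, n = 2 each). Ccl5 transcript reads thus remained in the CCL5-/- libraries at 9.29% of the WT level in replicate 1 and 2.3% in replicate 2. Counts per gene do not tell which exons those reads came from.

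The log2 difference of Ccl5 was -4.64 ± 0.69 (SE) over all 4 F4/80low libraries. Within same-numbered libraries it was -3.43 for replicate 1 and -5.44 for replicate 2. In edgeR's quasi-likelihood test the unadjusted p was 0.00076 and the Benjamini-Hochberg adjusted p over 12710 genes was 1.0. This test called no gene (0 of 12710, 0%), and 41 genes had an unadjusted p under 0.05. With DESeq2, Ccl5 was the sole gene called (1 of 12710, 0.00787%), at an adjusted p of 2.4e-08. The edgeR call depended on the WT libraries: the adjusted p was 9.9e-10 without WT replicate 1 and 0.0032 without WT replicate 2, with log2 differences of -5.21 and -3.64. In the authors' deposited table of their own comparison, Ccl5 had a log2 difference of -1.68 and an adjusted p of 2.6e-05, ranked 1 of 18000 genes by p, and was the sole gene under 0.05. DESeq2 gave -4.63 here for the same counts, and how the deposited value was estimated is not given. Its size is thus not comparable with the log2 differences above.

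Ratios of reads between genes of the same library do not depend on scaling. For each read of Ccl4, also of the distal cluster, there were 0.0101 and 0.00901 reads of Ccl5 in CCL5-/-, against 0.0919 and 0.167 in WT. Relative to Ccl2, there were 0.00293 and 0.00194 reads of Ccl5 in CCL5-/-, against 0.0769 and 0.0697 in WT. In both ratios the CCL5-/- libraries lay below the WT libraries with a wide gap.

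Because T cells and natural killer cells also make Ccl5, their markers were summed in the same libraries. The sum of 10 T cell markers, among them Cd3d and Cd3e, was 50.9 and 44.4 CPM in CCL5-/-, against 36.3 and 88.8 CPM in WT. The sum of 9 natural killer and cytotoxic cell markers, among them Ncr1 and Gzmb, was 193 and 187 CPM in CCL5-/-, against 110 and 432 CPM in WT. No marker of either list was at 0 in any of the 4 libraries. In WT replicate 1 both sums were below those of the 2 CCL5-/- libraries, while Ccl5 was above both. In WT replicate 2, where Ccl5 was highest, both sums were also highest. Their part in the difference between the WT libraries was not tested. In such bulk samples, fewer cells of a type and less RNA per cell cannot be told apart.

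**Figure D1:**
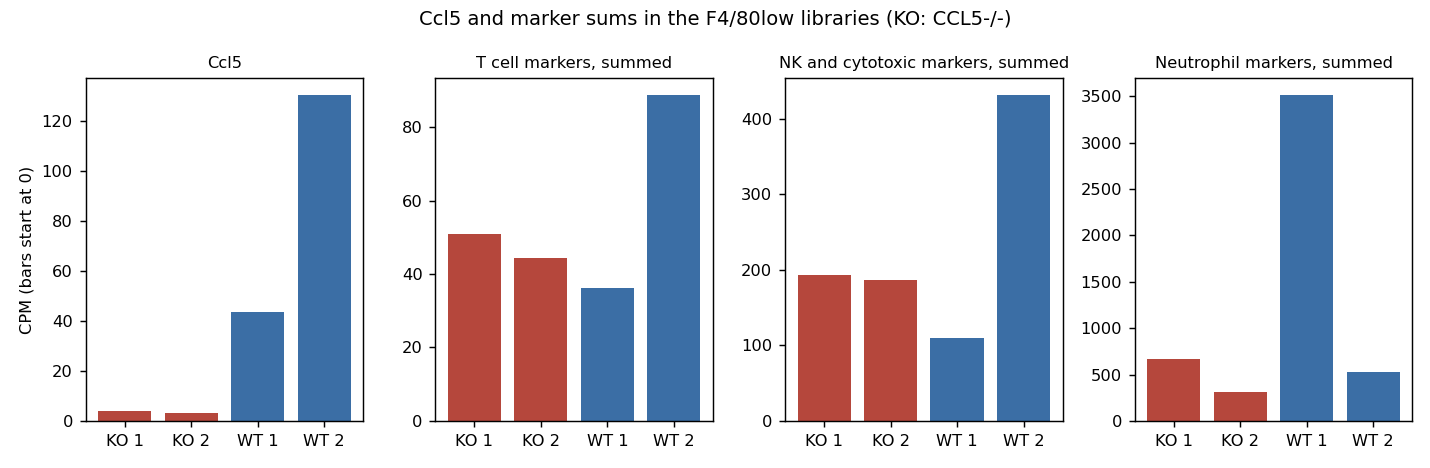
Ccl5 (left) and the summed levels of T cell, natural killer and cytotoxic cell, and neutrophil markers in each F4/80low library, in CPM, with 1 bar per library (KO is CCL5-/-). Ccl5 was at 4.07 and 3.01 CPM in CCL5-/- and at 43.8 and 130.7 CPM in WT, whereas the T cell and cytotoxic sums of the CCL5-/- libraries lay between those of the WT libraries and the neutrophil sum stood apart in WT replicate 1.

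None of the other 9 chemokines passed edgeR's threshold over all 4 libraries, and every one had an adjusted p of 1.0. Of the 10 genes, 4 were lower in CCL5-/- with no overlap between the groups (Ccl5, Ccl3, Ccl4 and Ccl9), where 8.24% of all tested genes were, and 0 were higher without overlap, where 8.36% of all tested genes were. All 4 belong to the distal cluster.

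The proximal cluster holds Ccl2 and Ccl7, the most abundant of these transcripts per length in every library but WT replicate 1. Ccl2, the main ligand of Ccr2 and an attractant of monocytes, had 1386 and 1551 CPM in CCL5-/- replicates 1 and 2, against 569 and 1875 CPM in WT replicates 1 and 2. The CCL5-/- values lay between the WT values. The log2 difference was 0.26 ± 0.71 over all libraries, 1.28 within replicate 1 and -0.27 within replicate 2.

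Ccl7, a ligand of Ccr1, Ccr2 and Ccr3, had 871 and 776 CPM in CCL5-/-, against 326 and 1052 CPM in WT. Here too WT replicate 1 was lowest and WT replicate 2 highest. Its log2 difference was 0.26 ± 0.68 over all libraries, 1.42 within replicate 1 and -0.44 within replicate 2. Ccl12, a mouse ligand of Ccr2, had 150 and 126 CPM in CCL5-/-, against 53.8 and 150 CPM in WT. WT replicate 1 was again the lowest library, and CCL5-/- replicate 1 and WT replicate 2 were almost level. Its log2 difference was 0.44 ± 0.57 over all libraries, 1.48 within replicate 1 and -0.25 within replicate 2.

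Ccl8, which in the mouse is a ligand of Ccr8, had 71.1 and 116 CPM in CCL5-/-, against 13.7 and 171 CPM in WT. It varied most between the WT libraries, with a log2 difference of 3.64 between WT replicates 2 and 1, and the CCL5-/- libraries lay between them. The log2 difference between genotypes was 0.02 ± 1.06 over all libraries, 2.37 within replicate 1 and -0.56 within replicate 2. Ccl11, the Ccr3 ligand eotaxin, had 0 and 19 reads in CCL5-/-, against 0 and 58 reads in WT. In replicate 1 a count of 0 allows up to 0.349 CPM in CCL5-/- and 0.515 CPM in WT, and the replicate 2 values were 0.698 CPM in CCL5-/- and 1.91 CPM in WT. Its log2 difference was -1.39 ± 1.68 over all libraries and -1.45 within replicate 2, and it was hardly expressed in any library.

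Ccl2, Ccl7, Ccl12 and Ccl8, the 4 proximal genes with reads in every library, thus were higher in CCL5-/- within replicate 1 (4 of 4, where 50.5% of 12579 genes were), and the same 4 were lower in CCL5-/- within replicate 2 (4 of 4, where 52.2% were). Ccl11, which had no reads in replicate 1, was also lower in CCL5-/- within replicate 2. Opposite signs in the 2 pairs were found for these 4 genes, and for 48.6% of the 12579 genes with reads in every library. The medians of the proximal genes were 1.45 within replicate 1, -0.44 within replicate 2 and 0.26 over all libraries, beside 0.005, -0.023 and -0.013 for all tested genes. Without WT replicate 1 the log2 difference was -0.34 for Ccl2, -0.34 for Ccl7, -0.11 for Ccl12 and -0.85 for Ccl8, so the sign of Ccl2, Ccl7 and Ccl12 over all libraries rested on that library. Ccl8, close to 0 over all libraries, was also below 0 without CCL5-/- replicate 2 (-0.38).

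WT replicate 1 also stood apart in neutrophil markers. The summed level of the 9 markers in the table, among them S100a8 and S100a9, was 666 and 308 CPM in CCL5-/-, against 3517 and 527 CPM in WT. The T cell and the natural killer and cytotoxic sums given above had, like the proximal genes, their lowest value in WT replicate 1 and their highest in WT replicate 2. The median log2 difference of the T cell markers was 0.37 within replicate 1 and -0.73 within replicate 2, and that of the natural killer and cytotoxic markers was 0.86 within replicate 1 and -0.90 within replicate 2. The part of these cells in the proximal chemokine levels was not tested.

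The RefSeq promoter table (GRCm38.p6, the C57BL/6J reference, whereas these mice were BALB/C) held 5 of the 10 genes. The bases just before the start of Ccl12 and Ccl8 are shown because these 2 were the proximal genes it held. Ccl2 and Ccl7, with the same order of WT libraries and the same change of sign between replicates, had no entry. They are chr11:82101595-82101844 for Ccl12 and chr11:82114935-82115184 for Ccl8, both on the plus strand, each 250 bases long and written 5′ to 3′ up to the last base before the start, with TATA matches in capitals.

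Ccl12: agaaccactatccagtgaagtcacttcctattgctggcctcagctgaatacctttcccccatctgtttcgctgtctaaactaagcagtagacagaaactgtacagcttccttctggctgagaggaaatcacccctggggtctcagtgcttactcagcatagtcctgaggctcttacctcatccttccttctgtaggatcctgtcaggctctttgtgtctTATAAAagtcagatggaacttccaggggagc

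Ccl8: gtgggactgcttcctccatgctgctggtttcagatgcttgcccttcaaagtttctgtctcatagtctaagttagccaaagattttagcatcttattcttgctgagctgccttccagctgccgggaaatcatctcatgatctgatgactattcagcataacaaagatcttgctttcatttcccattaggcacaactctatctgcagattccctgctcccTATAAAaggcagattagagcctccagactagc

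Both promoters hold TATAAA at nearly the same place, from -31 in Ccl12 and from -32 in Ccl8, counted in bases before the start. Over both strands of windows from 250 bases before to 50 bases after the start, 13.6% of 32851 promoters hold TATAAA. Neither window holds a match to the NF-kB consensus, to the interferon-stimulated response element GAAANNGAA, to the AP-1 motif TGANTCA or to the C/EBP motif TTGCNNAA, which were found in 4.51%, 8.56%, 7.81% and 10.8% of the promoters. A missing match says that these letters are not in this window.

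**Figure D2:**
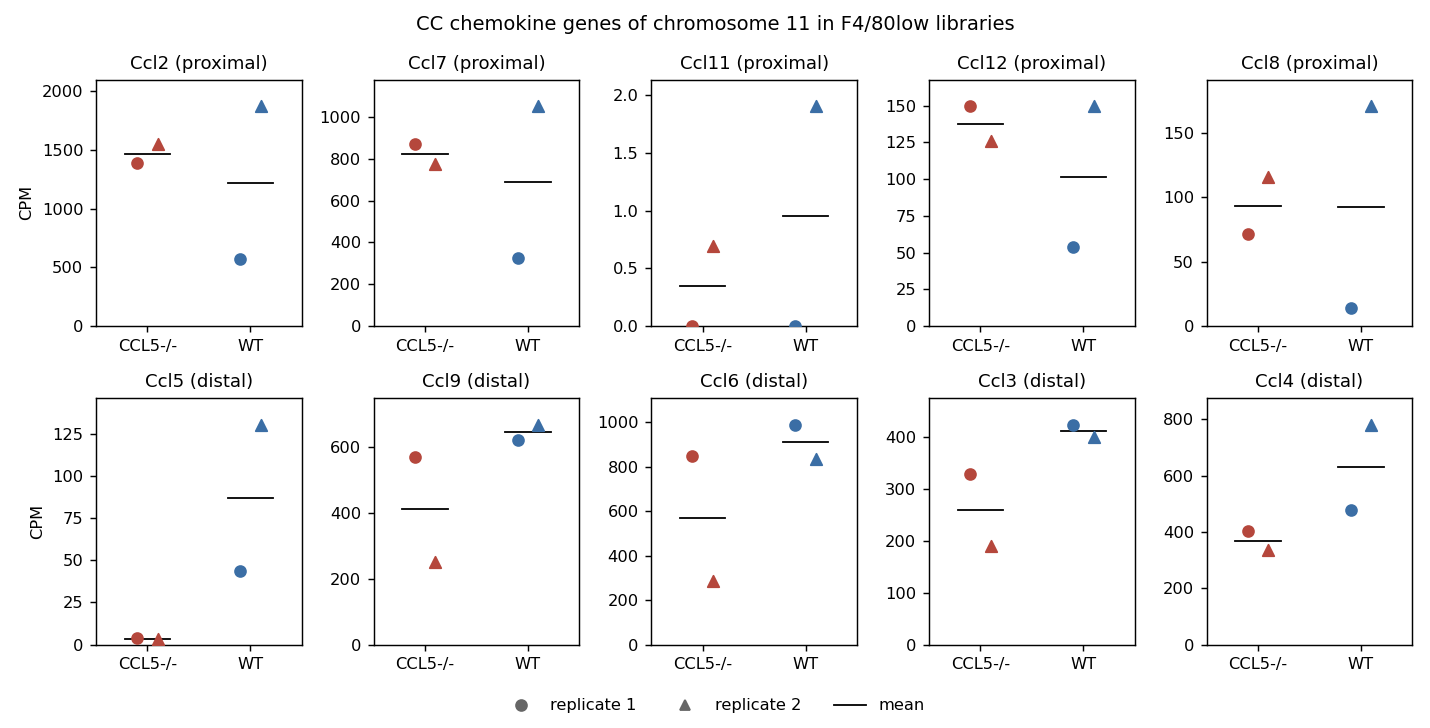
Level of each of the 10 chemokines in CPM, with 1 panel per gene in chromosomal order, CCL5-/- left and WT right, 1 point per library and a line at the mean of each group. In Ccl2, Ccl7, Ccl12 and Ccl8 the CCL5-/- libraries lay between the WT libraries or level with the higher one, whereas in Ccl5, Ccl3, Ccl4 and Ccl9 both CCL5-/- libraries lay below both WT libraries.

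In the distal cluster the 4 genes beside Ccl5 were lower in CCL5-/- within both pairs. Ccl3, an attractant of monocytes and macrophages and a ligand of Ccr1, had 328 and 190 CPM in CCL5-/-, against 423 and 400 CPM in WT. The groups did not overlap, and CCL5-/- replicate 2 was the lowest library. The log2 difference was -0.67 ± 0.48 over all libraries, -0.37 within replicate 1 and -1.07 within replicate 2. Ccl4, an attractant of macrophages and T cells, had 404 and 334 CPM in CCL5-/-, against 477 and 781 CPM in WT. The groups did not overlap, and WT replicate 2 was well above the other libraries. Its log2 difference was -0.77 ± 0.50 over all libraries, -0.24 within replicate 1 and -1.23 within replicate 2.

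Ccl9, a Ccr1 ligand of mouse myeloid cells, had 570 and 251 CPM in CCL5-/-, against 621 and 667 CPM in WT. The WT libraries were close to each other, CCL5-/- replicate 1 was just under them and CCL5-/- replicate 2 far below. Its log2 difference was -0.65 ± 0.57 over all libraries, -0.12 within replicate 1 and -1.41 within replicate 2. Ccl6, also a Ccr1 ligand and the neighbour of Ccl9, had 850 and 286 CPM in CCL5-/-, against 990 and 835 CPM in WT. CCL5-/- replicate 1 lay just above WT replicate 2, so the groups overlapped, and CCL5-/- replicate 2 was again the lowest. Its log2 difference was -0.68 ± 0.66 over all libraries, -0.22 within replicate 1 and -1.54 within replicate 2.

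The 4 distal genes beside Ccl5 were thus lower in CCL5-/- in 4 of 4 cases within replicate 1, where 49.5% of the 12579 genes were, and in 4 of 4 within replicate 2, where 52.2% were. Their medians were -0.23 within replicate 1, -1.32 within replicate 2 and -0.68 over all libraries. The size of these differences rested on single libraries. Leaving out CCL5-/- replicate 1 or CCL5-/- replicate 2 gave log2 differences of -1.64 or -0.10 for Ccl6, -1.33 or -0.18 for Ccl9, and -1.08 or -0.33 for Ccl3, and the value for Ccl4 was -1.07 without WT replicate 1 and -0.37 without WT replicate 2. The differences within replicate 1 were small, and none of the 4 genes passed the test (smallest unadjusted p 0.18, for Ccl4, in edgeR). Within replicate 2, the pair with few Rn45s reads, all 10 chemokines were lower in CCL5-/-, with Ccl2 and Ccl12 the least so and Ccl5 the most. The summed level of 6 monocyte markers, among them Ly6c2 and Ccr2, was 484 and 356 CPM in CCL5-/-, against 627 and 751 CPM in WT. These groups did not overlap either, and none of the 6 markers was at 0 CPM in any library. Of the 6 markers, 6 had a log2 difference below 0 with a median of -0.70, where 6592 of all 12710 tested genes were below 0. The neutrophil markers were below 0 in 9 of 9 cases too, with a median of -2.22 over all libraries, -2.70 within replicate 1 and -0.90 within replicate 2, and 2 of the 9 had an unadjusted p under 0.05 in edgeR. The part of monocytes and neutrophils in the distal chemokine levels was not tested. In the authors' deposited table the log2 differences of the 4 genes ran from -0.42 for Ccl4 to -0.31 for Ccl6, each with an adjusted p of 0.9999. As for Ccl5, the size of these deposited values is not comparable with that of the edgeR values.

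**Figure D3:**
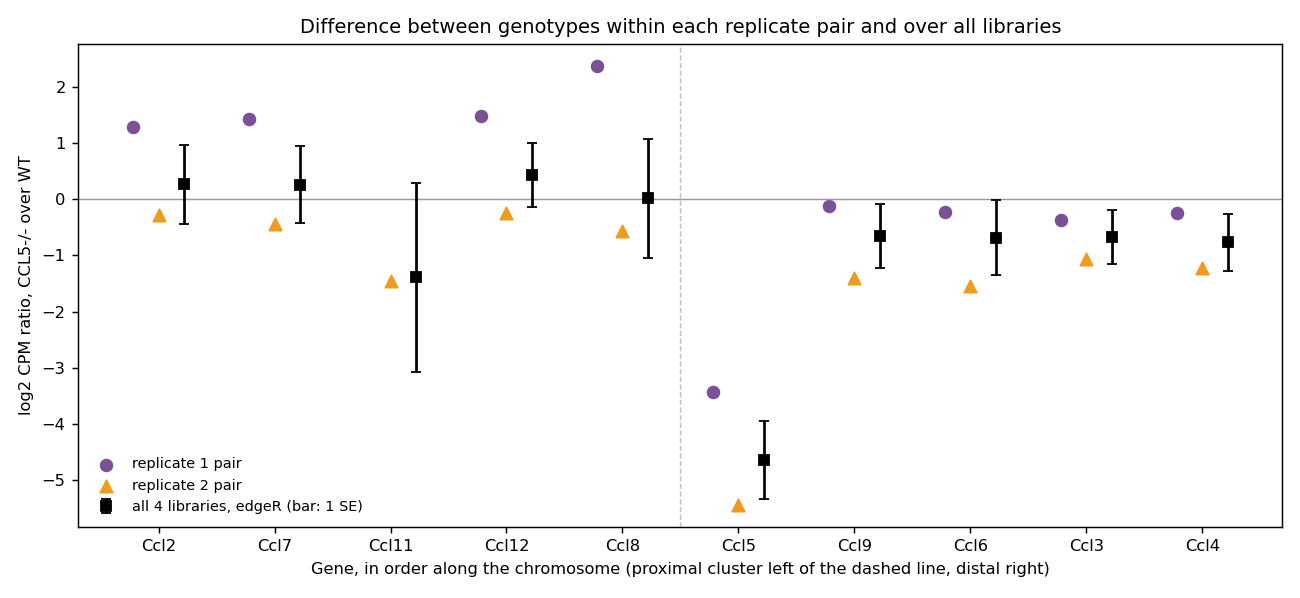
Log2 ratio of CPM, CCL5-/- over WT, for each chemokine in chromosomal order, within replicate 1 (circles), within replicate 2 (triangles) and over all 4 libraries by edgeR (squares, bars 1 SE). The distal genes right of the dashed line were below 0 in both pairs, and the proximal genes Ccl2, Ccl7, Ccl12 and Ccl8 were above 0 within replicate 1 and below 0 within replicate 2 (Ccl11 had no reads in replicate 1).

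The promoters of Ccl9, Ccl6 and Ccl3, the distal genes that the promoter table held, are shown for comparison with those of the proximal genes. They lie on the minus strand at chr11:83578637-83578886 for Ccl9, chr11:83593088-83593337 for Ccl6 and chr11:83649379-83649628 for Ccl3, written as above with every motif match in capitals.

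Ccl9: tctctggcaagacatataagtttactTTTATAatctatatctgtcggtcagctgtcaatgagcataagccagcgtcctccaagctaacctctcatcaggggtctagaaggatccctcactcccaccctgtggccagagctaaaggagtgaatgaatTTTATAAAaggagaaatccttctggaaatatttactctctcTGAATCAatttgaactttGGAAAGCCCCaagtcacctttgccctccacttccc

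Ccl6: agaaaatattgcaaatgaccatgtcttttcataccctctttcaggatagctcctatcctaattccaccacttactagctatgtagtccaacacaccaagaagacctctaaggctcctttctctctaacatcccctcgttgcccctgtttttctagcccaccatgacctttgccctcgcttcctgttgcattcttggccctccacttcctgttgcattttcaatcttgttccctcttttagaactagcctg

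Ccl3: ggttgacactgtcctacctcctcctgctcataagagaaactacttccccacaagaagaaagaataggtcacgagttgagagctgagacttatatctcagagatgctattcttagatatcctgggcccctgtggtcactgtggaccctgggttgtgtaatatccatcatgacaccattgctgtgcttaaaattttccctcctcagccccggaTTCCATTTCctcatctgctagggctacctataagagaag

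For a motif match, the minus strand is the complement of the written sequence and not the minus strand of the chromosome. In the Ccl9 promoter the capitals mark, from left to right, TATAAA on the minus strand, an overlapping pair of TATAAA matches on both strands from -94 to -87, an AP-1 match from -53 to -47 and an NF-kB match on the minus strand from -35 to -26. In the Ccl3 promoter they mark a match to the interferon-stimulated response element on the minus strand, from -39 to -31. The Ccl6 promoter holds no match to any of the 5 motifs. The 3 distal promoters thus share no motif of this set. A match of letters is a description and not a site of binding.

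The likeness of the genes across the 4 libraries was measured as the distance between their log2 CPM profiles, each centred on its own mean. The closest pairs were Ccl7 and Ccl12 at 0.207, Ccl2 and Ccl7 at 0.233, and Ccl3 and Ccl9 at 0.312, each within 1 cluster. Ccl6 and Ccl9 were at 0.386, while Ccl2 and Ccl3, from different clusters, were at 1.89. The clusters did not separate throughout: Ccl2 and Ccl8, both proximal, were at 1.43, farther apart than Ccl4 and Ccl7 from different clusters at 1.405, and Ccl4 and Ccl6, both distal, were at 1.15. With 4 libraries these distances are a description. Read ratios do not depend on scaling. There were 1.59 and 2.0 reads of Ccl2 for each read of Ccl7 in CCL5-/-, against 1.75 and 1.78 in WT, a ratio that stayed within 1.26-fold over the 4 libraries, while the reads of Ccl8 for each read of Ccl2 (0.0513 and 0.0748 in CCL5-/-, against 0.0241 and 0.0911 in WT) spanned 3.77-fold. For Ccl6 over Ccl9 the ratio was 1.49 and 1.14 in CCL5-/-, against 1.59 and 1.25 in WT, so it was lower in CCL5-/- within each pair, by less than it differed between replicates 1 and 2. Between the clusters, there were 4.23 and 8.16 reads of Ccl2 for each read of Ccl3 in CCL5-/-, against 1.34 and 4.69 in WT. That ratio was higher in CCL5-/- within each pair, but CCL5-/- replicate 1 was below WT replicate 2.

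Ccl5 was not close to any of the other 9, the nearest being Ccl4 at 3.57. Among 11972 tested genes with the same filter on names, the 5 nearest to Ccl5 were Akr1c18 (2.51), Dhx40 (2.86), H19 (2.93), Wfdc17 (3.06) and Snord89 (3.08), beside a median distance of 4.46. Akr1c18, a steroid dehydrogenase gene, had 1.16 and 1.76 CPM in CCL5-/-, against 3.44 and 11.3 CPM in WT. The log2 differences of the 5 genes ran from -2.33 to -1.73, a direction fixed by their choice as nearest to Ccl5, and none passed edgeR's threshold.

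Levels were compared between genes per length, as RPKM, here the CPM divided by the length of the joined exons in kilobases. Ccl2 was the highest of the 10 in 3 libraries, with 1218 and 1363 RPKM in CCL5-/- and 1648 RPKM in WT replicate 2. In WT replicate 1 Ccl4 was highest at 722 RPKM and Ccl2, at 500 RPKM, ranked 4. Ccl7 ranked 2 in the same 3 libraries and 5 in WT replicate 1. The means of Ccl2 were 1290 ± 102 RPKM in CCL5-/- and 1074 ± 811 RPKM in WT, and those of Ccl7 were 1028 ± 83.7 RPKM in CCL5-/- and 860 ± 641 RPKM in WT (SD, n = 2 each). The spread of the WT libraries was wider than the gap between neighbours in this order.

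By mean RPKM Ccl4 (559 ± 74.9 in CCL5-/- and 953 ± 326 in WT) came after Ccl7 in CCL5-/- and before it in WT. The next were Ccl3 (338 ± 127 in CCL5-/- and 537 ± 21.9 in WT) and Ccl6 (317 ± 222 in CCL5-/- and 508 ± 60.8 in WT). Ccl12 (256 ± 31.7 RPKM in CCL5-/- and 189 ± 126 RPKM in WT), Ccl8 (183 ± 61.99 in CCL5-/- and 181 ± 217 in WT) and Ccl9 (135 ± 74.0 in CCL5-/- and 212 ± 10.8 in WT) followed in CCL5-/-, while in WT Ccl9 was above Ccl12 and Ccl8. In CCL5-/- Ccl12 was above Ccl9 in both libraries without overlap, whereas in WT the gaps among the 3 genes were smaller than the SD of Ccl12 or of Ccl8. Ccl5 ranked 9 in both CCL5-/- libraries, against 8 and 9 in WT replicates 1 and 2, and Ccl11 was last everywhere. Ccl5 made up 0.0957% and 0.0827% of the summed RPKM of the 10 genes in CCL5-/-, against 1.47% and 2.23% in WT, so it was a minor transcript of this set in WT TAMs too.

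The proximal genes made up 61.5% and 73.6% of the summed RPKM in CCL5-/-, against 33.2% and 58.6% in WT. Both CCL5-/- libraries lay above both WT libraries, and CCL5-/- replicate 1 exceeded WT replicate 2 by little. Together the 10 chemokines took 0.760% (95% Wilson interval 0.753 to 0.768) and 0.526% (0.523 to 0.529) of the reads outside Rn45s in CCL5-/-, against 0.531% (0.524 to 0.538) and 0.830% (0.826 to 0.834) in WT. The CCL5-/- share was higher within replicate 1 and lower within replicate 2. The intervals cover counting error only.

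**Figure D4:**
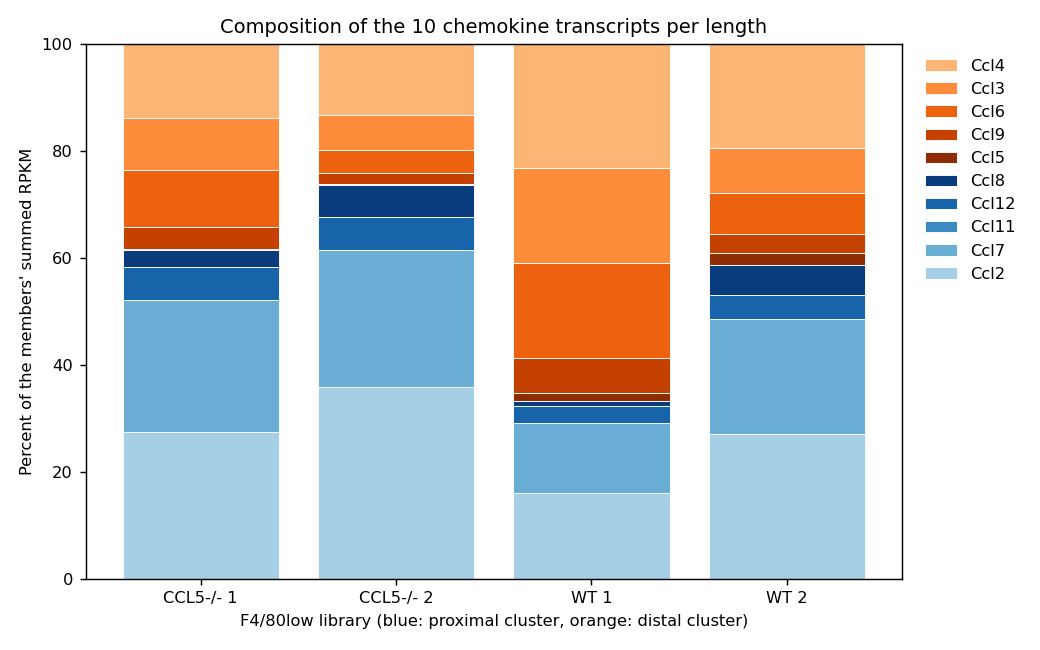
Share of each chemokine in the summed RPKM of the 10 genes, in percent, with 1 bar per F4/80low library, proximal genes in blue and distal genes in orange. The proximal genes made up 61.5% and 73.6% in CCL5-/- and 33.2% and 58.6% in WT, and Ccl5 was a thin band at 1.47% and 2.23% in WT.

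In the F4/80hi table the FPKM of Ccl5 was 145 in the library labelled CCL5-/-, with authors' bounds of 57.1 and 233, against 15.7 in the library labelled WT, with bounds of 1.72 and 29.8. The targeted gene thus went against the labels, with a log2 difference of 3.13 on the log2(FPKM + 1) scale. By the genotypes in the titles, it was lower in the CCL5-/- library. With 1 library per label there is no replicate check and no test, and the depth behind FPKM is unknown. Ccl2 had 1335 FPKM in the library labelled CCL5-/-, against 3096 FPKM in the library labelled WT, and was the highest of the 10 in both. Ccl7 had 813 FPKM in the library labelled CCL5-/-, against 2119 FPKM in the library labelled WT. These 2 proximal genes were thus lower in the library in which Ccl5 was high.

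Ccl12 had 204 FPKM in the library labelled CCL5-/-, against 538 FPKM in the library labelled WT. Ccl8 had 59.5 FPKM in the library labelled CCL5-/-, against 287 FPKM in the library labelled WT, and besides Ccl5 it was the sole gene of the 10 whose authors' bounds lay apart. The log2 differences of Ccl2, Ccl7, Ccl12 and Ccl8 were -1.21, -1.38, -1.39 and -2.25. The distal genes Ccl3, Ccl4, Ccl6 and Ccl9 had 1033, 1190, 1277 and 445 FPKM in the library labelled CCL5-/-, against 692, 825, 1067 and 389 FPKM in the library labelled WT. Their log2 differences of 0.58, 0.53, 0.26 and 0.19 were all under 2-fold. Ccl11 is listed at 0 in both libraries.

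Of the 9 genes with at least 1 FPKM in either library, 1 (Ccl5) was at least 2-fold higher in the library labelled CCL5-/-, where 2.35% of 11670 genes were, and 4 were at least 2-fold lower, where 1.58% were. For 9 of 9 genes the sign was that of WT replicate 1 over CCL5-/- replicate 1 in the F4/80low counts. The sizes were close too, for example -2.25 for Ccl8 in FPKM beside -2.37 in counts. Since these libraries were counted as the same samples, these values repeat the replicate 1 pair and give no separate view of F4/80hi TAMs. Under the genotypes named in the titles, all 9 differences would have the opposite sign.

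**Figure D5:**
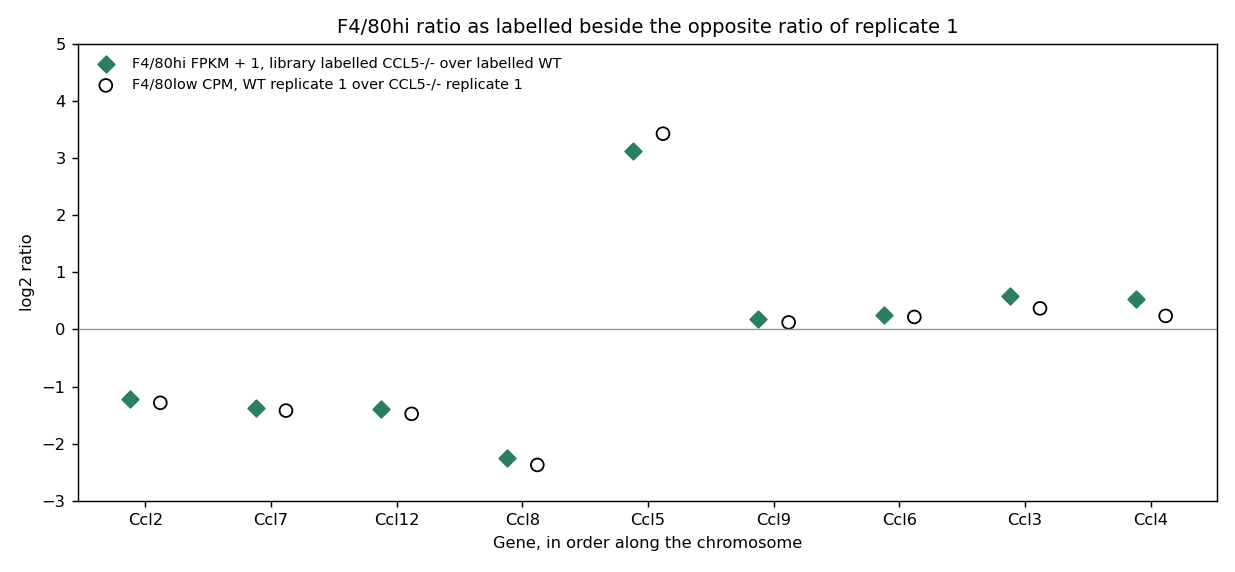
Log2 ratio of FPKM + 1, F4/80hi library labelled CCL5-/- over labelled WT (diamonds), beside the log2 ratio of CPM, F4/80low WT replicate 1 over CCL5-/- replicate 1 (circles), for the 9 chemokines with at least 1 FPKM. The 2 ratios had the same sign for 9 of 9 genes, from -2.25 and -2.37 for Ccl8 to 3.13 and 3.43 for Ccl5.

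CC chemokine receptors, not all of which bind the chemokines studied here, were examined as a list of 13 genes. Of these, 6 had enough reads to be tested and 0 passed edgeR's threshold. Of the 6, 5 were below 0, where 6592 of all 12710 tested genes were. The median log2 difference of the 6 was -0.42 (-0.40 within replicate 1 and -0.68 within replicate 2). Ccr2 and Ccr3 changed sign, from 0.32 and 0.66 within replicate 1 to -1.15 and -0.8 within replicate 2. The 4 with the smallest p were Ccr9 (-1.10), Ccr7, which guides dendritic cells to lymph nodes (-0.49), Ccrl2 (-0.54) and Ccr1, the receptor shared by Ccl3, Ccl5, Ccl6, Ccl7 and Ccl9 (-0.36). Ccr1 had 165 and 86.2 CPM in CCL5-/-, against 195 and 127 CPM in WT.

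Of 11 other CC chemokine genes, 5 were tested and 0 passed, with a median of 0.02. The 4 with the smallest p were Ccl25 (0.66), Ccl20 (0.95), Ccl17 (-0.08) and Ccl24 (-0.08). Of 17 CXC, CX3C and XC chemokines, 14 were tested and 0 passed, with a median of -0.23, and the 4 with the smallest p were Cxcl14 (-0.60), Cxcl12 (-0.90), Xcl1 (-1.43) and Cxcl16 (-0.68). Genes of chemokine induction, namely NF-kB and interferon signalling with the cytokines Tnf and Il1b, were tested in 25 of 25 cases and 0 passed, with a median of -0.13, and Irf7 (-0.56), Tnf (-0.47), Myd88 (-0.31) and Il1b (-0.47) had the smallest p. Of 6 regulators of chemokine mRNA turnover 0 passed, with a median of -0.03, and those with the smallest p were Zfp36l2 (0.18), Zfp36l1 (-0.18), Zfp36, which encodes an AU-rich element binding protein (-0.15), and Elavl1 (0.08). These medians stand beside -0.013 for all 12710 tested genes and -0.66 for the 10 chemokines themselves.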

How the data were processed

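For the 4 F4/80low libraries the authors deposited read counts per gene, all whole numbers. A deposited comparison table held the authors' log2 fold changes, standard errors, a test statistic (score), p-values and adjusted p-values, and a normalised signal that is the counts divided by a factor that was constant within each library. FPKM values with lower and upper bounds were deposited by the authors for F4/80hi. Per the submitters' processing notes, STAR, HTSeq, DESeq2, TopHat2 2.1.1 and Cufflinks 2.2.1 were among the tools, with several builds. The sources used here do not tie a tool or build to a table. FPKM loci overlapped GENCODE M21 (GRCm38) for 99.02% of 20919 shared symbols.

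The main test was edgeR's robust two-sided quasi-likelihood test with genotype as sole term (version 4.0.16, R 4.3.3, TMM factors, filterByExpr), with Benjamini-Hochberg adjustment over 12710 genes and a threshold of 0.05. The standard error was the log2 change over the square root of F. The fits were tested on simulated data without a difference between replicates 1 and 2, unlike these libraries. That check does not tell the power of the fits here. F4/80hi differences used a pseudocount of 1, over genes with at least 1 FPKM in either library. Exact permutation of 2 against 2 libraries cannot pass the threshold and was not used. Distances between profiles used log2(CPM + 0.5). Named genes were the 10 chemokines, up to 4 tested genes of each list by smallest p, and the 5 nearest to Ccl5, without clone-named models, numbered pseudogenes and Rik names. The 10 genes and all lists were chosen with earlier results of these data known. A further item of the receptor list is not reported here. Alternatives were RLE factors, Rn45s removed, no filter, DESeq2 1.42.0, limma-voom 3.58.1, a replicate block and leaving out each library.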

Additional observations from a re-analysis of the deposited data

Results flagged for a closer look

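For 5 distal genes the F4/80hi difference, as labelled, had the sign opposite to that of both F4/80low pairs. The log2 difference in F4/80hi was 3.13 for Ccl5, 0.58 for Ccl3, 0.53 for Ccl4, 0.26 for Ccl6 and 0.19 for Ccl9, all higher in the library labelled CCL5-/-. In F4/80low the pairs gave -3.43 and -5.44 for Ccl5, -0.37 and -1.07 for Ccl3, -0.24 and -1.23 for Ccl4, -0.22 and -1.54 for Ccl6, and -0.12 and -1.41 for Ccl9. Because the F4/80hi libraries were counted as the replicate 1 samples matched crosswise, a sign opposite to that of replicate 1 follows from the match. It is not read as a difference between the populations, which was not tested, with 1 F4/80hi library per label. The genotype named in the titles of these 2 libraries would turn all 5 F4/80hi signs. Their reads matched the replicate 1 libraries of F4/80low crosswise by the genotype field, and genotype to genotype by the titles.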

How the results depend on the processing

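The count of genes past the threshold, 0 in edgeR, was 1 with DESeq2, 0 with limma-voom, and 0 with RLE factors, with Rn45s removed and without the filter on low counts. Leaving out 1 library gave 0 to 10 genes, and 0 to 1 of the 10 chemokines. The call on Ccl5 depended on the tool and on the WT libraries: its log2 difference of -4.64 in edgeR was -4.63 with DESeq2, where 1 of the 10 chemokines passed, and -5.21 to -3.64 when 1 library was left out, passing without WT replicate 1 or WT replicate 2; the cause was not tested. Its adjusted p over all alternatives ran from 1.3e-22 to 1.0. A fit that leaves 1 library in a group assumes that it varies like the others.

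The replicate numbers come from the titles alone, and 2 pairs cannot show that they pair the libraries; deviations of CCL5-/- and WT libraries from their group means had a correlation of 0.752 across 12710 genes. With the replicate block, edgeR called 10 genes and none of the 10 chemokines (Ccl5 adjusted p 0.0985), DESeq2 called 25 and limma-voom 47, each with 1 chemokine, Ccl5, at log2 differences of -4.50 and -4.86.

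For the other 9 chemokines, 102 of 108 alternative values kept their sign and none passed. The 6 that turned all left out 1 library. Leaving out WT replicate 1 and WT replicate 2 gave the lowest and highest values of Ccl2 (-0.34 and 1.37), Ccl7 (-0.34 and 1.34), Ccl12 (-0.11 and 1.36) and Ccl8 (-0.85 and 2.77), and Ccl8 was -0.38 without CCL5-/- replicate 2. The distal genes stayed below 0, from -1.64 to -0.10 for Ccl6, -1.33 to -0.18 for Ccl9, -1.08 to -0.33 for Ccl3 and -1.07 to -0.37 for Ccl4. Ccl11 ran from -7.03 to 5.54, values set by a group with 0 reads and no bound on its change. In a check chosen after seeing the data, RLE factors and Rn45s removal left 4 chemokines lower without overlap and 4 with opposite signs in the pairs. Longest transcripts in place of joined exons moved 2 of 20 group levels by more than 1 SD (Ccl5 in CCL5-/-, Ccl6 in WT). The signs of 9 F4/80hi differences held with a pseudocount of 0.1 and without the filter.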

Other observations

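Cxcl9, an interferon-induced T cell attractant encoded outside the clusters, was chosen after its values were seen. It had 42.9 and 116 CPM in CCL5-/- replicates 1 and 2, against 2.92 and 247 CPM in WT replicates 1 and 2. As in Ccl8, WT replicate 1 was the lowest library and WT replicate 2 the highest. The log2 difference was 3.88 within replicate 1 and -1.09 within replicate 2, and -0.65 ± 1.60 over all 4 libraries (edgeR adjusted p 1.0).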
